A study of Mus musculus with 12 samples.

Results

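Drugs that act on acetylated chromatin by different routes, given for the same 36 h, were compared directly: VPA at 2 mM (libraries 1 to 3) against JQ1 at 1 µM (libraries 1 to 3), 6 of the 12 libraries of the series. The cells are ISOS-1, a mouse angiosarcoma line that the labels give as endothelial and wild type (WT). The other 6 libraries, SAHA at 1 µM for 24 h and DMSO with no time given, serve as context, with 3 libraries in each of the 4 groups. The DMSO libraries received vehicle, and all 4 groups are labelled WT. A single line gives no view of other tumours, and the labels do not say whether the 3 libraries of a group came from separate cultures, so p-values measure the spread between these libraries, which may be technical. The comparison covers the 12836 of 55359 identifiers that reached 1 TPM in 3 or more of the 12 libraries. TPM is a transcript abundance scaled by length and to the same total in every library, so depth, and with it the counting error of a value, is unknown.

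Lysine acetylation of histones is written by acetyltransferases, removed by histone deacetylases (HDACs) and read by bromodomain proteins. Valproic acid (VPA) is a short-chain fatty acid that inhibits class I HDACs and so leaves more acetyl marks in place. JQ1 occupies the acetyl-lysine pocket of the BET bromodomain proteins and displaces them from chromatin. P-TEFb is the kinase that releases paused RNA polymerase II, and BET inhibitors are known for lowering MYC output and cell cycle genes in many tumour lines. The drugs differ in target and in concentration, so a difference between them is one between these treatments at these doses. In bulk RNA, fewer cells of a type and less RNA per cell cannot be told apart.

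VPA libraries resembled each other more than they resembled JQ1 libraries, and the same held for JQ1 libraries. Pearson's r of log2(TPM + 1) (taken across genes, which do not replicate one another) was 0.934 to 0.945 within VPA, 0.941 to 0.946 within JQ1 and 0.888 to 0.897 between them. Between VPA and SAHA it was 0.932 to 0.945 and between VPA and DMSO 0.928 to 0.941, near the range within VPA. The share of TPM in mitochondrially encoded genes was 12.2 ± 0.244% in VPA and 14.6 ± 0.526% in JQ1 (SD, n = 3 each; two-sided exact permutation p = 0.1, the smallest that 3 against 3 can give). The ribosomal RNA gene Rn18s held 8.51 ± 0.598% in VPA and 8.86 ± 0.655% in JQ1 (exact permutation p = 0.6). Many defining endothelial genes were at or near 0: of 27 blood endothelial markers, 9 (Cdh5, Cldn5, Erg, Icam2, Lmo2, Robo4, Sox17, Tal1 and Vwf) were listed at 0 in all 12 libraries and 6 passed the filter. A listed 0 need not mean that a gene is silent, since the depth is unknown and a low level can be missed.

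VPA and JQ1 left the cells with widely different transcriptomes. With limma on log2(TPM + 1) and Benjamini-Hochberg adjustment over all tested genes, 2945 genes (22.9%) were higher in VPA than in JQ1 and 1319 (10.3%) were lower at an adjusted p under 0.05, together 33.2% of those tested. Of these, 1432 (11.2%) were at least 2-fold higher and 579 (4.51%) at least 2-fold lower on the scale of log2(TPM + 1), where changes of low genes appear too small. The 3 VPA and 3 JQ1 libraries did not overlap for 45.3% of tested genes. In 4 equal bins of mean TPM, the share of genes called was 14.1% in the lowest and 55.3% in the highest. Against SAHA, the other HDAC inhibitor, VPA differed in 0.452% of genes (0.187% higher, 0.265% lower), although SAHA was given for 24 h. Of the 30 genes with the largest differences from JQ1, the ones called against SAHA were Cxcl5 and Spp1.

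The split into higher and lower genes depends on how libraries are scaled. The median difference over all tested genes was 0.14 on the log2 scale (0.06 for VPA and −0.07 for JQ1 against DMSO), and 69.1% of the called genes were higher in VPA. Median-of-ratios scaling, which sets that median to 0, gave 2253 higher and 1927 lower genes (53.9% higher), and quantile normalization gave 2217 and 2005 (52.5%). Leaving out mitochondrially encoded genes and Rn18s gave 2758 and 1453 (65.5%). Differences are therefore read against a shift of 0.14, and gene groups whose direction turns with the scaling are named as such. Counts of list members are likewise to be read against the 22.9% higher and 10.3% lower of all tested genes.

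**Figure D1:**
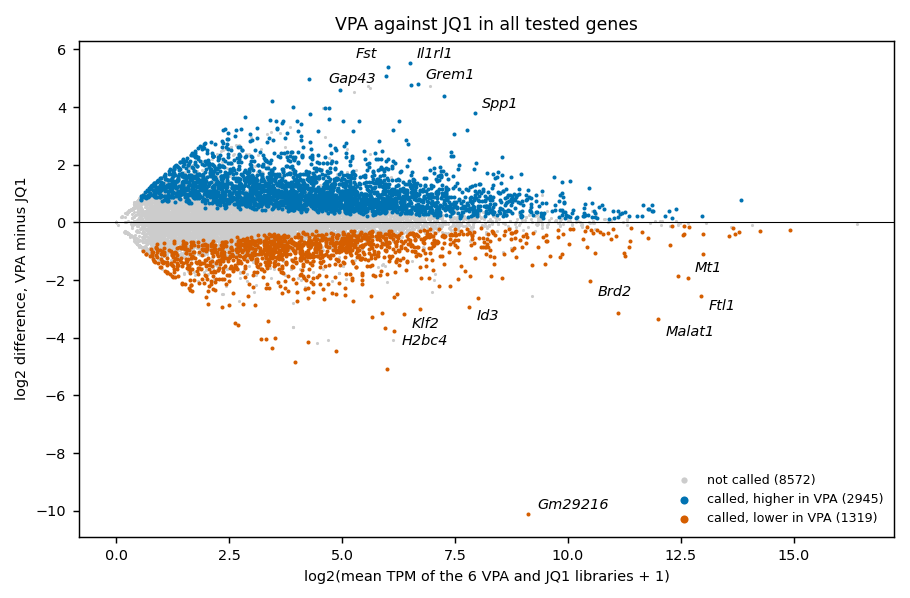
Each point is one of 12836 tested genes, with the mean level of the 6 VPA and JQ1 libraries as log2(TPM + 1) on the horizontal axis and the log2 difference, VPA minus JQ1, on the vertical axis. Blue marks the 2945 genes called higher in VPA and orange the 1319 called lower, with Il1rl1, Fst and Gap43 at the top and Malat1, Klf2 and the predicted gene Gm29216 far below 0.

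The genes furthest above JQ1 in VPA included genes of secreted and cell-surface proteins. Il1rl1 (ENSMUSG00000026069), the receptor of the cytokine IL-33, had 173, 172 and 180.2 TPM in VPA libraries, against 1.91, 8.76 and 0.98 in JQ1 libraries. Every VPA library lay above every JQ1 library, as the naming rule required (mean 45.1-fold, log2 difference 5.52, SE 0.43, adjusted p = 2.75e-06). In DMSO it stood at 191, 169 and 199 TPM, so VPA lay near vehicle (log2 difference −0.09, 95% interval −1.03 to 0.86) while JQ1 fell below it.

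Secreted antagonists of the activin and BMP branches of TGF-beta signalling stood next. Fst (ENSMUSG00000021765), encoding the activin-binding protein follistatin, had 147, 114 and 113 TPM in VPA libraries, against 1.89, 0.71 and 4.46 in JQ1 libraries. Its VPA libraries were 52.9-fold higher on average (log2 difference 5.38, SE 0.32, adjusted p = 3.77e-07). Grem1 (ENSMUSG00000074934), a BMP antagonist, had 202, 191 and 198 TPM in VPA libraries, against 4.6, 7.06 and 7.04 in JQ1 libraries (log2 difference 4.80, SE 0.12, adjusted p = 6.94e-10). Neither gene's groups overlapped, as the naming rule required. The growth factor gene Igf1 had 24, 15 and 20.7 TPM in VPA libraries, against 0.32, 0 and 0 in JQ1 libraries, and the neutrophil chemokine gene Cxcl5 had 26.2, 27.5 and 28.5 TPM in VPA libraries, against 0.61, 0.82 and 0.83 in JQ1 libraries. Both pairs of groups stood apart, as the naming rule required (log2 difference 4.23, adjusted p = 5.74e-07 for Igf1, and log2 difference 4.02, adjusted p = 2.25e-09 for Cxcl5). Spp1 encodes osteopontin, a matrix protein that binds CD44 and integrins, and had 472, 427 and 472 TPM in VPA libraries, against 27.6, 30.9 and 39.5 in JQ1 libraries (log2 difference 3.78, SE 0.11, adjusted p = 1.95e-09).

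Genes of signalling and neuronal proteins were also among them. Gap43 (ENSMUSG00000047261), a growth-cone protein of neurons, had 119, 133 and 114 TPM in VPA libraries, against 1.21, 4.02 and 3.24 in JQ1 libraries (log2 difference 5.08, SE 0.24, adjusted p = 7.22e-08). Crabp1, which binds retinoic acid in the cytoplasm, had 184, 171 and 174 TPM in VPA libraries, against 3.73, 7.09 and 6 in JQ1 libraries (log2 difference 4.78, SE 0.17, adjusted p = 4.95e-09). Prkg2, the membrane-bound cGMP-dependent protein kinase, had 282, 290.2 and 294 TPM in VPA libraries, against 16.6, 10.2 and 12.8 in JQ1 libraries (log2 difference 4.38, SE 0.13, adjusted p = 1.95e-09). In none of the 3 did a JQ1 library reach a VPA library, as the naming rule required. Ramp3, a partner protein of the calcitonin receptor-like receptor, averaged 35.3 ± 7.51 TPM in VPA and 1.65 ± 0.251 in JQ1, and Slc16a11, of the monocarboxylate transporter family, 46.8 ± 13.9 TPM in VPA and 3.43 ± 2.75 in JQ1 (SD, n = 3 each; log2 differences 3.76 and 3.57, adjusted p = 4.05e-08 and 2.6e-05). The heme-binding protein gene Hebp2 averaged 18.4 ± 2.04 TPM in VPA and 0.743 ± 0.704 in JQ1 (log2 difference 3.56, adjusted p = 3.9e-06). Vip, a neuropeptide gene, differed in another way: it had 51, 59.8 and 65.9 TPM in VPA libraries, against 5.97, 3.04 and 3.86 in JQ1 libraries, and the JQ1 libraries overlapped those of DMSO (5.14, 1.99 and 5.04 TPM). For Vip the difference from JQ1 was 3.53 (adjusted p = 2.76e-06) and that from DMSO 3.63 (adjusted p = 7.45e-05).

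Genes furthest below JQ1 in VPA included a nuclear long noncoding RNA, transcription regulators and histone genes. Malat1 (ENSMUSG00000092341), an abundant nuclear RNA of speckles, had 739, 678 and 759 TPM in VPA libraries, against 7355, 7381 and 7702 in JQ1 libraries. All 3 JQ1 libraries stood above the VPA libraries, as the naming rule required (log2 difference −3.37, SE 0.05, adjusted p = 1e-11). The VPA libraries lay near DMSO (713, 713 and 657 TPM). Klf2 (ENSMUSG00000055148), a transcription factor that endothelial cells induce under laminar flow, had 15.6, 16.4 and 15 TPM in VPA libraries, against 152, 146 and 149.9 in JQ1 libraries (log2 difference −3.17, SE 0.12, adjusted p = 1.15e-08). The inhibitors of DNA binding Id2 and Id3, which sequester bHLH factors, moved alike. Id2 had 13.4, 9.53 and 10.8 TPM in VPA libraries, against 96.8, 101 and 119 in JQ1 libraries, and Id3 had 59.5, 40.8 and 54.1 TPM in VPA libraries, against 393, 416 and 384 in JQ1 libraries. Their groups did not overlap, as the naming rule required (log2 difference −3.13, SE 0.19, adjusted p = 4.39e-07 for Id2, and log2 difference −2.94, SE 0.14, adjusted p = 7.24e-08 for Id3). Id1, outside the naming rule, had 71.2, 73.4 and 70.1 TPM in VPA libraries, against 448, 455 and 422 in JQ1 libraries (log2 difference −2.61, adjusted p = 4.34e-09).

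Among stress-response regulators, Ddit3 (ENSMUSG00000025408), which encodes the CHOP factor, had 22.1, 20 and 26.2 TPM in VPA libraries, against 214, 186 and 165 in JQ1 libraries (log2 difference −3.00, SE 0.15, adjusted p = 8.63e-08). Atf3, a related bZIP gene, had 5.52, 10.6 and 2.68 TPM in VPA libraries, against 44.5, 42.1 and 33.4 in JQ1 libraries (log2 difference −2.64, adjusted p = 0.000279). Both were separated in every library, as the naming rule required, although the VPA values of Atf3 varied widely among themselves. Nupr1l, a paralog of the stress gene Nupr1, had 0.42, 2.35 and 0 TPM in VPA libraries, against 14.7, 13.8 and 24.5 in JQ1 libraries (log2 difference −3.43, adjusted p = 0.00687). The rule also named histone genes, described further on, and 5 short noncoding RNAs: n-R5s88 and Snora78 were higher in VPA, and Snord118, Rn7sk and Mm2pr lower. Their values scattered within groups, as for Rn7sk, the 7SK RNA that holds P-TEFb inactive (22.7, 0 and 24.6 TPM in VPA libraries, against 99.6, 92.1 and 58.4 in JQ1 libraries; log2 difference −3.28, adjusted p = 0.0211). The call of Rn7sk ended, among other settings, without JQ1 replicate 1 (adjusted p = 0.0612) or 2 (0.058), with the highest value, 0.0965, in a fit of the 6 libraries alone. The call of Snord118 ended, among other settings, without VPA replicate 2 or 3 or JQ1 replicate 2 or 3 (adjusted p up to 0.0891). Whether the 3′ kit, which primes on poly(A) tails, captures these 5 short RNAs was not tested, so their levels are uncertain. The predicted gene Gm29216, outside the naming rule and chosen after its values were seen, was listed at 0 in all VPA and DMSO libraries and at 993, 1040.2 and 1312 TPM in JQ1. Whether reads of a similar sequence were assigned to it was not tested, so its level is uncertain.

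**Figure D2:**
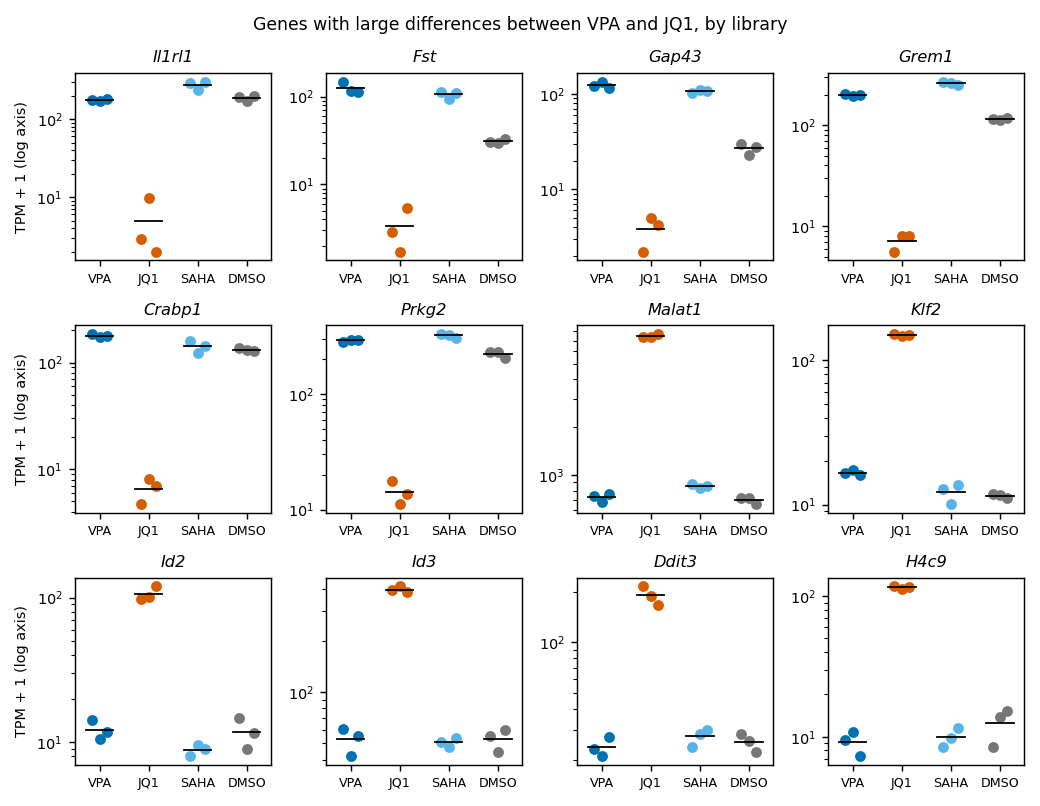
TPM + 1 on a log axis for 12 genes in VPA, JQ1, SAHA and DMSO libraries. Points are single libraries (3 per group) and lines are group means. In the first 6 panels the JQ1 points lie below all others, and in the last 6 they lie above all others, while every VPA mean lies nearer to the DMSO mean than the JQ1 mean does.

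Cell cycle genes were higher in VPA in nearly every case. Of 35 tested mitosis genes, 31 were higher in VPA than in JQ1 and the other 4 did not pass, with a median log2 difference of 1.46 against 0.14 over all genes. Their summed level was 2315 to 2411 TPM in VPA and 768 to 781 in JQ1. Cdca8, a subunit of the chromosomal passenger complex that corrects kinetochore attachments, had 97.7, 100.1 and 97.2 TPM in VPA libraries, against 11.7, 16.9 and 23.7 in JQ1 libraries (log2 difference 2.48, SE 0.19, adjusted p = 2.98e-06). Ube2c, the ubiquitin-conjugating enzyme of the anaphase-promoting complex, had 277, 287 and 292 TPM in VPA libraries, against 52, 55.3 and 47.6 in JQ1 libraries (log2 difference 2.45, SE 0.078, adjusted p = 2.25e-09). In both genes every VPA library was above every JQ1 library. The kinase Plk1, which drives mitotic entry and spindle assembly, averaged 57.6 ± 7.11 TPM in VPA and 12.4 ± 0.648 in JQ1 (log2 difference 2.12, adjusted p = 3.11e-07). The checkpoint kinase Bub1b averaged 21.4 ± 0.208 TPM in VPA and 4.48 ± 2.55 in JQ1 (log2 difference 2.16, adjusted p = 0.000407), and the proliferation marker Mki67 21.6 ± 0.943 TPM in VPA and 7.18 ± 0.1 in JQ1 (log2 difference 1.47, adjusted p = 2.75e-06).

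Genes of S phase followed the same direction. Of 37 DNA replication genes, 33 were higher in VPA (median 1.45), with summed levels of 1748 to 1822 TPM in VPA and 768 to 821 in JQ1. Mcm3, a subunit of the replicative helicase, had 63.7, 67.9 and 88 TPM in VPA libraries, against 18.7, 14.3 and 12.7 in JQ1 libraries (log2 difference 2.20, SE 0.15, adjusted p = 1.16e-06), with no overlap. Mcm10, which activates that helicase, averaged 22 ± 1.52 TPM in VPA and 3.51 ± 2.22 in JQ1 (log2 difference 2.46, adjusted p = 4.11e-05). The histone chaperone subunit Chaf1b averaged 16.5 ± 4.63 TPM in VPA and 1.69 ± 1.35 in JQ1 (log2 difference 2.81, adjusted p = 0.000378), and the origin licensing factor Cdc6 had 10.3, 11.6 and 12 TPM in VPA libraries, against 6.16, 0.31 and 1.4 in JQ1 libraries (log2 difference 2.12, adjusted p = 0.00418). Of 19 genes of G1 cyclins, their kinases, the RB family and E2F, 13 were higher in VPA (median 0.99). They included the cyclin E genes Ccne1 (32.8 ± 2.79 TPM in VPA and 5.18 ± 3.06 in JQ1; log2 difference 2.56, adjusted p = 3.9e-05) and Ccne2 (109 ± 11.4 TPM in VPA and 27.6 ± 8.15 in JQ1; log2 difference 1.97, adjusted p = 1.9e-05). The kinase Cdk6 averaged 17.1 ± 1.98 TPM in VPA and 4.67 ± 0.767 in JQ1 (log2 difference 1.67, adjusted p = 5.76e-06) and the atypical repressor E2f8 11 ± 2.49 TPM in VPA and 1.49 ± 0.42 in JQ1 (log2 difference 2.26, adjusted p = 0.00037).

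Enzymes that make nucleotides were higher in VPA as well, 25 of 32 tested (median 0.93). The salvage enzyme thymidine kinase, Tk1, had 89.6, 101 and 103 TPM in VPA libraries, against 14.1, 11.6 and 13.4 in JQ1 libraries (log2 difference 2.82, SE 0.091, adjusted p = 2.52e-09). The groups were wide apart. Tyms, thymidylate synthase, averaged 15 ± 6.54 TPM in VPA and 2.1 ± 1.37 in JQ1 (log2 difference 2.35, adjusted p = 0.000764), and Rrm2, the inducible subunit of ribonucleotide reductase, 23.9 ± 0.481 TPM in VPA and 7.07 ± 0.876 in JQ1 (log2 difference 1.63, adjusted p = 3.5e-06). Of 6 tested CDK inhibitors, 3 were higher in VPA and 1 lower (2 lower without DMSO replicate 1). Over all genes the shares were 22.9% and 10.3%. Cdkn1a, encoding p21, had 55.9, 48.4 and 51.1 TPM in VPA libraries, against 16.7, 13.6 and 20.1 in JQ1 libraries (log2 difference 1.58, SE 0.15, adjusted p = 1.12e-05), with DMSO at 26.4, 22.1 and 22 TPM. It rose with VPA (log2 difference 1.11, adjusted p = 0.00257) and fell with JQ1 (−0.47, adjusted p = 0.0293) against the same vehicle libraries. Cdkn2c averaged 19.7 ± 5.59 TPM in VPA and 6.96 ± 0.93 in JQ1 and Cdkn2d 31.3 ± 2.85 TPM in VPA and 18.5 ± 2.29 in JQ1 (log2 differences 1.34 and 0.73). Cdkn2b, encoding p15, was lower in VPA at 16.4 ± 1.46 TPM, against 42 ± 4.01 in JQ1 (log2 difference −1.30, adjusted p = 4.67e-05).

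Against DMSO, the mitosis and replication lists moved with JQ1 and little with VPA. Among 12836 tested genes, 2.95% rose and 1.32% fell with VPA (4.27% in all), and 12.9% rose and 21.0% fell with JQ1. Of the 35 mitosis genes, 34 fell with JQ1, and the median log2 difference from DMSO was −0.13 for VPA and −1.42 for JQ1. Of the 37 replication genes, 33 fell with JQ1, with medians of −0.03 for VPA and −1.37 for JQ1. With VPA no member of either list passed the adjusted threshold by limma (2 of the mitosis and 7 of the replication genes had an unadjusted p under 0.05). The medians of the G1 list against DMSO were 0.02 for VPA and −0.89 for JQ1, and those of nucleotide enzymes −0.11 and −0.86.

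The promoters of these genes are shown because the members moved together. RefSeq windows of GRCm38.p6, from 250 bases before to 50 after the start, were matched by symbol for 30 of the 35 mitosis genes and 31 of the 37 replication genes. The letters CCAAT, on either strand and with overlapping matches counted, stood in 25 of the 30 mitosis windows (83.3%) and in 21 of the 31 replication windows (67.7%). The share was 39.9% over 8830 windows of tested genes and 37.9% over all 27025 windows. CCAAT is the sequence bound by the factor NF-Y in many cell cycle promoters, and a match of letters is not evidence of binding. The windows of Cdca8 and Ube2c, the 2 mitosis genes with the largest difference, follow, 5′ to 3′ along the gene's strand, with CCAAT and its reverse complement ATTGG in capitals. Cdca8 holds 4 matches and Ube2c 6.
Cdca8 (chr4:124936868-124937167, minus strand): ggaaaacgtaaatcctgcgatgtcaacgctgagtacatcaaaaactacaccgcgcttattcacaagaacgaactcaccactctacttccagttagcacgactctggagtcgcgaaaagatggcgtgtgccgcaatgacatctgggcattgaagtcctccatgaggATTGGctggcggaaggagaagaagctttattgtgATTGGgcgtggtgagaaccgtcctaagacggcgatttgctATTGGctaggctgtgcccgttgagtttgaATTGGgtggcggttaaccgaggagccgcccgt
Ube2c (chr2:164769679-164769978, plus strand): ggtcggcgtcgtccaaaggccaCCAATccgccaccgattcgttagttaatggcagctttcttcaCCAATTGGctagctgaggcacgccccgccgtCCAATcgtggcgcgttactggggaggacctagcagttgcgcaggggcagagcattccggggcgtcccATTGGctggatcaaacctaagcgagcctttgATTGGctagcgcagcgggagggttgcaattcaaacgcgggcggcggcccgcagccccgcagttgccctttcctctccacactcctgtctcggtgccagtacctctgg

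Ribosome production genes formed another group that was higher in VPA. Of 40 ribosome biogenesis factors, 34 were higher than in JQ1 and the other 6 did not pass (median 0.90), and their summed level was 7239 to 7258 TPM in VPA and 4278 to 4429.8 in JQ1. Dkc1, the pseudouridine synthase of H/ACA particles, had 396, 413 and 333 TPM in VPA libraries, against 111, 98.7 and 104 in JQ1 libraries (log2 difference 1.85, SE 0.076, adjusted p = 1.86e-08). DMSO stood higher than both, at 558, 568 and 569 TPM, so Dkc1 fell with VPA (log2 difference −0.57, adjusted p = 0.00255) and further with JQ1 (log2 difference −2.42, adjusted p = 2.56e-09). Nle1, an assembly factor of the large subunit, averaged 33.9 ± 1.92 TPM in VPA and 9.57 ± 4.42 in JQ1 (log2 difference 1.82, adjusted p = 0.000536). Rrp9 and Wdr12, which act in early and large-subunit processing, averaged 82.1 ± 5.68 TPM in VPA and 31.4 ± 2.04 in JQ1, and 32.2 ± 10.1 TPM in VPA and 10.9 ± 5.23 in JQ1 (log2 differences 1.36 and 1.53, adjusted p = 1.01e-05 and 0.00285). The list median against DMSO was −0.20 for VPA and −1.09 for JQ1.

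MYC is known to drive many of these genes through E-boxes. The letters CACGTG stood in 8 of 35 matched biogenesis windows (22.9%), against 10.6% of the 8830 windows of tested genes and 7.24% of all 27025. In the same comparison they stood in 5 of 31 replication windows (16.1%) and 1 of 30 mitosis windows (3.33%). Lysosome and autophagy genes, which were lower in VPA more often than higher, held them in 6 of 29 windows (20.7%), and nucleotide enzymes in 5 of 29 (17.2%). The window of Nle1, the gene with the largest difference among those that hold the motif, is printed with the E-box in capitals.
Nle1 (chr11:82908346-82908645, minus strand): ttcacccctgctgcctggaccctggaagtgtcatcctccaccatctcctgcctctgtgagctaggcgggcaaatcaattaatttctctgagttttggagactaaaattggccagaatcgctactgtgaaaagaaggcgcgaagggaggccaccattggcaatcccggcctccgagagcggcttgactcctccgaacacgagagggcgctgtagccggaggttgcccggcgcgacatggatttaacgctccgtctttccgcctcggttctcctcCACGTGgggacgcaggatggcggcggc

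Translation and protein turnover followed with smaller differences. Against DMSO the median of mitochondrial ribosomal proteins was 0.03 for VPA and −0.63 for JQ1, and that of proteasome subunits 0 and −0.45. For aminoacyl-tRNA synthetases these medians were −0.01 and −0.6, and for chaperones −0.1 and −0.56. Of 78 mitochondrial ribosomal protein genes, 45 were higher in VPA and the other 33 did not pass (median 0.63), among them Mrpl23 (44 ± 7.8 TPM in VPA and 9.17 ± 0.357 in JQ1; log2 difference 2.13, adjusted p = 8.33e-05) and Mrpl18 (139.7 ± 17.5 TPM in VPA and 48 ± 3.36 in JQ1; log2 difference 1.52, adjusted p = 9.15e-07). Of 34 proteasome subunits, 25 were higher (median 0.49), including the catalytic subunit Psmb7 at 198 ± 5.64 TPM in VPA and 97.6 ± 10.8 in JQ1 (log2 difference 1.02, adjusted p = 3.65e-06). Of 20 aminoacyl-tRNA synthetases, 11 were higher (median 0.54), led by the methionine enzyme Mars1 at 192 ± 25.8 TPM in VPA and 53.6 ± 2.24 in JQ1 (log2 difference 1.81, adjusted p = 1.38e-06). Among 24 chaperones 14 were higher in VPA and 2 lower (median 0.46). The small heat-shock protein Hspb8 had 119.6, 119.5 and 117 TPM in VPA libraries, against 35.2, 29.6 and 39 in JQ1 libraries (log2 difference 1.76, SE 0.093, adjusted p = 1.63e-07), and the mitochondrial chaperonin Hspd1 averaged 362 ± 16.4 TPM in VPA and 179 ± 11.4 in JQ1 (log2 difference 1.01, adjusted p = 3.13e-07). Hspa1b, a heat-inducible HSP70 gene with a near-identical copy, was lower in VPA at 26 ± 3.1 TPM, against 63.8 ± 1.25 in JQ1 (log2 difference −1.27, adjusted p = 3.08e-06), and is uncertain because the copies can share reads.

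For the structural ribosome and the respiratory chain the direction was less firm. Of 86 cytosolic ribosomal protein genes, 41 were higher in VPA and 13 lower (median 0.13), but median-of-ratios scaling turned the counts to 17 higher and 27 lower. Rpl27 was higher in VPA (4532 ± 28.5 TPM in VPA and 2944 ± 74.6 in JQ1; log2 difference 0.62, adjusted p = 3.2e-08), and Rplp0, of the ribosomal stalk, was lower (772 ± 12.6 TPM in VPA and 1304 ± 1.95 in JQ1; log2 difference −0.76, adjusted p = 4.02e-08). Of 82 nuclear-encoded respiratory chain genes, 38 were higher in VPA and 5 lower (median 0.24), against 19 and 12 with median-of-ratios scaling. The ATP synthase subunit gene Atp5g1 averaged 337 ± 3.02 TPM in VPA and 168 ± 11.5 in JQ1 (log2 difference 1.01, adjusted p = 1.67e-06). Of 15 tested mitochondrially encoded genes, 10 were lower in VPA (median −0.33), such as COX1, a cytochrome c oxidase subunit, with 1577, 1504 and 1456 TPM in VPA libraries, against 2001, 1986 and 1996 in JQ1 libraries (log2 difference −0.40, adjusted p = 1.5e-05). Those genes make up the larger mitochondrial share of TPM in JQ1. Without them and Rn18s, the ribosomal protein counts were 34 higher and 15 lower, and the respiratory chain counts 31 and 7.

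**Figure D3:**
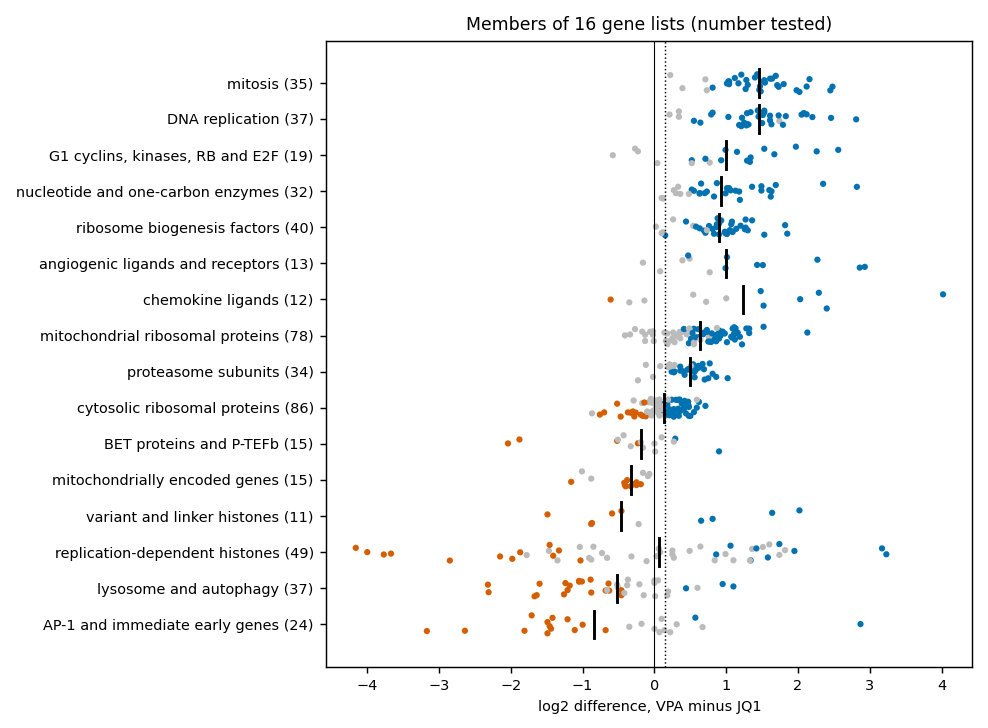
Each point is a tested member of one of 16 gene lists, placed by its log2 difference, VPA minus JQ1, with blue for members called higher in VPA, orange for members called lower and grey for the others. Vertical bars are list medians, the solid line is 0 and the dotted line is the median of all genes (0.14). Mitosis and DNA replication lie to the right (medians 1.46 and 1.45), and lysosome and immediate early genes to the left (−0.52 and −0.84).

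The targets of JQ1 and their partners did not move as a block. Among 15 genes of BET proteins and P-TEFb, 2 were higher in VPA and 4 lower (median −0.19), beside 22.9% and 10.3% of all genes. Brd2 (ENSMUSG00000024335) had 557, 565 and 562 TPM in VPA libraries, against 2293, 2492 and 2180.0 in JQ1 libraries, and Hexim1, which inhibits P-TEFb and is used as a marker of BET inhibition, had 11.7, 12.1 and 10.2 TPM in VPA libraries, against 43, 43.1 and 46.7 in JQ1 libraries. Both were lower in VPA in every library (log2 difference −2.04, SE 0.05, adjusted p = 4.96e-10 for Brd2; log2 difference −1.88, SE 0.16, adjusted p = 6.54e-06 for Hexim1). DMSO held 652, 629.5 and 655 TPM of Brd2 and 12.2, 12.9 and 9.18 of Hexim1. Brd3 stood at 31.5, 31.4 and 31.6 TPM in VPA and 29.1, 26.6 and 40.6 in JQ1, and the groups overlapped (log2 difference 0.00, adjusted p = 0.994, 95% interval −0.32 to 0.31). Larp7, a chaperone of 7SK RNA, was higher in VPA, at 209 ± 6.52 TPM in VPA and 112 ± 3.44 in JQ1 (log2 difference 0.90, adjusted p = 1.15e-06). The call of the cyclin gene Ccnt1 ended, among other settings, without VPA replicate 2 or 3 or JQ1 replicate 3 (adjusted p up to 0.136 among these), and the list then held 2 lower members. A single member was higher without replicate 1 or 3 of VPA or JQ1.

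Among the enzymes that VPA is known to inhibit and their family, 10 zinc-dependent HDACs were tested. Of these 2 were higher in VPA and 2 lower, beside 22.9% and 10.3% of all genes, with 1 lower without VPA replicate 3 or JQ1 replicate 2. Hdac2, a class I enzyme, had 77.4, 75.4 and 89.7 TPM in VPA libraries, against 40.4, 39.1 and 42 in JQ1 libraries (log2 difference 0.98, SE 0.15, adjusted p = 0.000368), with DMSO at 62.6, 94.7 and 90.7 TPM. Hdac1 averaged 77 ± 6.57 TPM in VPA and 59.4 ± 3.49 in JQ1 (log2 difference 0.37, adjusted p = 0.00954), a call that ended with median-of-ratios scaling (adjusted p = 0.155) and quantile normalization (0.362). Hdac3 stood at 7.18 ± 0.354 TPM in VPA and 5.39 ± 0.361 in JQ1 (log2 difference 0.36, adjusted p = 0.131), and the class IIa gene Hdac5 was lower in VPA at 76.8 ± 10.4 TPM, against 116 ± 9.51 in JQ1 (log2 difference −0.59, adjusted p = 0.00188). Of 31 acetyltransferases and HDAC corepressors, 9 were higher in VPA and 3 lower, near the shares of all genes, and the lower count was 1 without VPA replicate 1 or 2, JQ1 replicate 1, SAHA replicate 2 or DMSO replicate 1, and 0 without VPA replicate 3 or JQ1 replicate 2. Rcor2, a corepressor that binds LSD1, averaged 12.6 ± 3.48 TPM in VPA and 0.99 ± 0.849 in JQ1 (log2 difference 2.82, adjusted p = 6.4e-05) and Mta3, of the NuRD complex, 10.7 ± 0.885 TPM in VPA and 1.12 ± 0.749 in JQ1 (log2 difference 2.53, adjusted p = 2.07e-05).

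Myc itself differed little beside the biosynthesis genes. It had 30.7, 33.8 and 24.6 TPM in VPA libraries, against 20.7, 18.9 and 22.4 in JQ1 libraries (log2 difference 0.50, SE 0.13, adjusted p = 0.013), while DMSO held 22.2, 22.2 and 20.1 TPM and the JQ1 difference from it was −0.06 (adjusted p = 0.779). The call between VPA and JQ1 ended without VPA replicate 2 (adjusted p = 0.0559), in a fit of the 6 libraries alone (0.0512), with median-of-ratios scaling (0.0898) and with quantile normalization (0.0892). In the 10 tested genes of the MYC and MAX network, 2 were higher in VPA and 3 lower, beside 22.9% and 10.3% of all genes. The MAX-binding repressor Mxd4 had 28.4, 22.6 and 31.6 TPM in VPA libraries, against 108, 103 and 82.7 in JQ1 libraries (log2 difference −1.80, SE 0.15, adjusted p = 3.71e-06), with no overlap. Without VPA replicate 2 no member of this list was higher by limma at the adjusted threshold (3 had an unadjusted p under 0.05), and without VPA replicate 1 or 3 or JQ1 replicate 1 or 3 a single one was. Hmga1, an architectural chromatin protein outside the naming rule, had 555, 646 and 662 TPM in VPA libraries, against 121, 146 and 113 in JQ1 libraries (log2 difference 2.29, adjusted p = 1.74e-08).

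Histone genes split by member, and their counts stand beside 22.9% higher in VPA and 10.3% lower over all genes. Of 49 tested replication-dependent histone genes, 9 were higher in VPA and 12 lower (median 0.06), and their summed level was 1473 to 1883 TPM in VPA and 1156 to 1211 in JQ1, against 3557 to 3753 in DMSO. H2ac24, outside the naming rule, had 1426, 1525 and 1139 TPM in VPA libraries, against 520.1, 489.6 and 509 in JQ1 libraries (log2 difference 1.42, adjusted p = 9.62e-07), and the direction of the sum rests on it. Without H2ac24 the list summed to 334 to 396 TPM in VPA, 662 to 702 in JQ1 and 574 to 649.6 in DMSO, lower in VPA than in JQ1. H4c9 had 8.53, 9.74 and 6.28 TPM in VPA libraries, against 117, 111 and 115 in JQ1 libraries (log2 difference −3.67, SE 0.23, adjusted p = 4.86e-07), and H2bc4 had 9.78, 8.5 and 8.02 TPM in VPA libraries, against 139, 120.2 and 137 in JQ1 libraries (log2 difference −3.77, SE 0.51, adjusted p = 0.000174). H2ac24, H4c9 and H2bc4 were each separated by library, which the naming rule required of H4c9 and H2bc4. H3c15 averaged 0.45 ± 0.779 TPM in VPA and 20.3 ± 1.83 in JQ1 (adjusted p = 3.09e-06), and H4c8 had 0, 0 and 5.83 TPM in VPA libraries, against 22.5, 41.1 and 38.7 in JQ1 libraries (log2 difference −4.16, adjusted p = 0.00146). These genes are near-identical copies whose reads can be split between members, and most of their transcripts end without the poly(A) tail on which the 3′ kit primes, so single members are uncertain. Of 11 variant and linker histone genes, 4 were higher in VPA and 5 lower. The replacement histone genes H3f3b and H3f3a were lower in VPA, H3f3b with 314, 302 and 307 TPM in VPA libraries, against 879, 874 and 846 in JQ1 libraries (log2 difference −1.49, SE 0.046, adjusted p = 2.25e-09) and H3f3a at 189.6 ± 7.9 TPM in VPA and 346 ± 9.09 in JQ1 (log2 difference −0.87, adjusted p = 1.56e-06). Cenpa, the centromeric variant, was higher (74.2 ± 21.3 TPM in VPA and 17.1 ± 1.52 in JQ1; log2 difference 2.02, adjusted p = 9.15e-06). H1f0, a linker histone that HDAC inhibitors are known to induce, had 108, 105 and 109 TPM in VPA libraries, against 149.6, 143 and 152 in JQ1 libraries (log2 difference −0.46, adjusted p = 0.000251). Both drugs stood above DMSO (56.7, 58 and 57.1 TPM), and JQ1 was the higher of them.

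Immediate early genes and the feedback genes of MAPK signalling went opposite ways. Of 24 AP-1 and immediate early genes, 13 were lower in VPA and 2 higher (median −0.84), and 4 were higher without JQ1 replicate 3. Beside Klf2 and Atf3, the MAPK phosphatase gene Dusp1 had 24.9, 23.6 and 25.5 TPM in VPA libraries, against 91.8, 81.2 and 93.5 in JQ1 libraries (log2 difference −1.81, SE 0.11, adjusted p = 4.64e-07). Junb and Egr1, outside the naming rule, had 32.8, 31.5 and 33.9 TPM in VPA libraries, against 113, 108 and 107 in JQ1 libraries for Junb, and 40.4, 36.1 and 41.4 TPM in VPA libraries, against 103, 119 and 114 in JQ1 libraries for Egr1 (log2 differences −1.71 and −1.49, adjusted p = 2.35e-07 and 5.23e-06). In these 3 genes no VPA library reached a JQ1 library. Fosl1, encoding the AP-1 member FRA1, ran the other way with 24, 31.4 and 31.7 TPM in VPA libraries, against 3.37, 1.74 and 4.68 in JQ1 libraries (log2 difference 2.87, SE 0.23, adjusted p = 3.71e-06). Jun, also outside the rule, stood at 75.5 ± 3.7 TPM in VPA and 64.9 ± 6.43 in JQ1 (log2 difference 0.22, adjusted p = 0.0805). Of 14 MAPK feedback regulators, 9 were higher in VPA (median 0.80). Against DMSO the MAPK feedback median was 0.13 for VPA and −0.6 for JQ1, and the immediate early median 0.04 and 0.83. The ERK phosphatase Dusp6 had 75.2, 72.3 and 70.5 TPM in VPA libraries, against 24.2, 29.4 and 26.8 in JQ1 libraries (log2 difference 1.41, SE 0.1, adjusted p = 1.66e-06), the ETS factor Etv4 averaged 10.2 ± 1.63 TPM in VPA and 1.25 ± 0.374 in JQ1 (log2 difference 2.32, adjusted p = 4.65e-06), and the EGF receptor inhibitor Errfi1 43.9 ± 5.49 TPM in VPA and 17 ± 2.78 in JQ1 (log2 difference 1.32, adjusted p = 3.04e-05).

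TGF-beta, BMP and ID genes held some of the largest differences in each direction. Of 24 tested, 5 were higher in VPA and 6 lower (median −0.12), beside 22.9% and 10.3% of all genes. The higher ones included the ligand antagonists Fst and Grem1 and the activin subunit Inhba (51.5 ± 2.05 TPM in VPA and 16 ± 0.561 in JQ1; log2 difference 1.63, adjusted p = 8.14e-07), and the lower ones Id1, Id2, Id3 and the inhibitory SMAD gene Smad7 (1.02 ± 0.161 TPM in VPA and 4.87 ± 1.07 in JQ1; log2 difference −1.53, adjusted p = 0.000246). Inhba and Smad7 lie outside the naming rule. Of 19 YAP and TEAD genes, 4 were higher in VPA and 7 lower, beside the same shares of all genes. Ccn1, a matricellular protein, had 50.9, 47.3 and 50.4 TPM in VPA libraries, against 238, 220.2 and 235 in JQ1 libraries (log2 difference −2.20, SE 0.077, adjusted p = 4.93e-09), and Amotl2, an angiomotin that binds YAP, had 7.71, 10.2 and 5.99 TPM in VPA libraries, against 47, 44.9 and 53.4 in JQ1 libraries (log2 difference −2.48, SE 0.19, adjusted p = 2.57e-06). The groups were apart in both. Ankrd1, another gene used as a YAP target, was higher in VPA with 123, 123 and 141 TPM in VPA libraries, against 44.5, 50.7 and 45 in JQ1 libraries (log2 difference 1.44, SE 0.11, adjusted p = 1.87e-06), as was the TEAD gene Tead2 (24.5 ± 4.22 TPM in VPA and 6.9 ± 1.23 in JQ1; log2 difference 1.69, adjusted p = 3.11e-05).

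Several chemokine genes were higher in VPA than in JQ1, with list medians against DMSO of 0.14 for VPA and −0.89 for JQ1. Of 12 tested chemokine ligands, 6 were higher in VPA and 1 lower (median 1.24), and the lower one, Ccl25, named after its values were seen, lost its call without VPA replicate 1 or 2 or JQ1 replicate 1 or 3. Ccl2, which attracts monocytes, had 104, 81.6 and 79.7 TPM in VPA libraries, against 15.4, 17 and 15.2 in JQ1 libraries (log2 difference 2.40, SE 0.13, adjusted p = 1.63e-07). Cxcl1 had 14.1, 10.8 and 17.6 TPM in VPA libraries, against 1.24, 3.78 and 3.55 in JQ1 libraries (log2 difference 2.03, SE 0.28, adjusted p = 0.000196), and Ccl7 averaged 26.7 ± 4.06 TPM in VPA and 9 ± 2.15 in JQ1 (log2 difference 1.48, adjusted p = 0.000654). Each was higher in every VPA library than in any JQ1 library. Of 18 NF-kB and inflammatory genes, 5 were higher in VPA and 2 lower, beside 22.9% and 10.3% of all genes. The adhesion molecule Vcam1 averaged 13.1 ± 1.82 TPM in VPA and 0.993 ± 0.506 in JQ1 (log2 difference 2.85, adjusted p = 1.55e-06) and the macrophage growth factor Csf1 89.2 ± 3.31 TPM in VPA and 46 ± 4.99 in JQ1 (log2 difference 0.94, adjusted p = 1.16e-05). Nfkbia, which encodes the inhibitor IκBα and is itself an NF-kB target, was lower with 116, 88.7 and 93.2 TPM in VPA libraries, against 357, 346 and 364 in JQ1 libraries (log2 difference −1.84, SE 0.1, adjusted p = 2.35e-07). Summed leukocyte markers were 1.5 to 3.73 TPM in VPA and 1.44 to 4.03 in JQ1, and 5 of 11 were listed at 0 in all libraries.

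Angiogenic genes were higher in VPA than in JQ1 in 8 of 13 tested cases (median 0.99). Against DMSO the list median was −0.06 for VPA and −0.71 for JQ1, with 2 members higher with VPA and 9 lower with JQ1. Apln, the ligand of the apelin receptor, had 13.3, 14.7 and 14.8 TPM in VPA libraries, against 1.24, 0.96 and 0.81 in JQ1 libraries (log2 difference 2.93, SE 0.17, adjusted p = 3.53e-07). Adm, encoding the vasoactive peptide adrenomedullin, had 17.7, 18.2 and 18.1 TPM in VPA libraries, against 4.95, 0.56 and 0.95 in JQ1 libraries (log2 difference 2.86, SE 0.4, adjusted p = 0.000244). The lymphangiogenic ligand Vegfd averaged 6.97 ± 1.41 TPM in VPA and 0.657 ± 0.349 in JQ1 (log2 difference 2.27, adjusted p = 1.1e-05) and Vegfb 48.1 ± 5.01 TPM in VPA and 17.5 ± 3.81 in JQ1 (log2 difference 1.43, adjusted p = 1.56e-05). Vegfa, outside the naming rule, had 30.3, 27.6 and 27.6 TPM in VPA libraries, against 32.8, 26.9 and 21.8 in JQ1 libraries, and the groups overlapped (log2 difference 0.08, adjusted p = 0.795, 95% interval −0.37 to 0.53). Among 6 tested blood endothelial markers, 2 were higher in VPA, beside 22.9% of all genes. Of these, Cd34, of endothelial and progenitor cells, had 147, 151 and 118 TPM in VPA libraries, against 51.8, 52.6 and 52.9 in JQ1 libraries (log2 difference 1.38, SE 0.1, adjusted p = 1.57e-06). The other, Thbd (thrombomodulin), outside the naming rule, averaged 4.59 ± 0.205 TPM in VPA and 1.62 ± 0.369 in JQ1 (log2 difference 1.11, adjusted p = 0.00162). Podoplanin, Pdpn, the single tested lymphatic marker of 8, had 107, 105 and 105 TPM in VPA libraries, against 45.8, 49.1 and 45.8 in JQ1 libraries (log2 difference 1.16, SE 0.077, adjusted p = 8.14e-07).

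Matrix genes differed gene by gene, and their counts stand beside 22.9% higher in VPA and 10.3% lower over all genes. Of 28 non-collagen matrix genes, 16 were higher in VPA and 4 lower (median 0.92), with 13 and 8 under quantile normalization. Thbs2, a matricellular thrombospondin, had 23.4, 23 and 23.5 TPM in VPA libraries, against 4.97, 1.54 and 4.95 in JQ1 libraries (log2 difference 2.44, SE 0.28, adjusted p = 5.89e-05). Postn, encoding periostin, had 4.37, 7.23 and 5.55 TPM in VPA and was listed at 0 in all 3 JQ1 libraries. Among 30 collagens and collagen-processing enzymes, 10 were higher in VPA and 8 lower. Col3a1 had 19.1, 18.4 and 20.9 TPM in VPA libraries, against 2.96, 2.95 and 3.99 in JQ1 libraries (log2 difference 2.26, SE 0.13, adjusted p = 3.64e-07), and the crosslinking enzyme Loxl1 averaged 41.1 ± 2.28 TPM in VPA and 10.3 ± 1.43 in JQ1 (log2 difference 1.90, adjusted p = 9.15e-07). Of 20 matrix proteases and inhibitors, 6 were higher in VPA and 5 lower, and the TIMP genes split. Timp1 was higher in VPA (93.9 ± 0.42 TPM in VPA and 26.7 ± 3.94 in JQ1; log2 difference 1.79, adjusted p = 8.83e-07), while Timp2 was lower with 133, 148 and 122 TPM in VPA libraries, against 520.4, 493 and 458 in JQ1 libraries (log2 difference −1.86, SE 0.085, adjusted p = 4.33e-08), as was Timp3 (27.2 ± 6 TPM in VPA and 88 ± 3.89 in JQ1; log2 difference −1.68, adjusted p = 1.71e-05). Mmp14, a membrane-bound collagenase, was lower at 40.7 ± 0.645 TPM in VPA, against 129 ± 3.72 in JQ1 (log2 difference −1.64, adjusted p = 2.35e-07).

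Markers of fibroblasts also differed. Of 6 tested markers of 10, 5 were higher in VPA (median 1.59), and the summed level of the list was 596 to 681 TPM in VPA and 279 to 304 in JQ1, against 313 to 317 in DMSO. Thy1, a surface glycoprotein, had 509.6, 442 and 529.8 TPM in VPA libraries, against 141, 161 and 154 in JQ1 libraries (log2 difference 1.69, SE 0.11, adjusted p = 5.35e-07), and its JQ1 libraries lay near DMSO (154, 147 and 162 TPM). Thy1 carries the sum: without it, the list held 152 to 167 TPM in VPA, 138 to 149.9 in JQ1 and 156 to 169 in DMSO, and 1 marker was higher with VPA than in DMSO. Pdgfra, the PDGF receptor alpha, averaged 5.56 ± 1.18 TPM in VPA and 0.09 ± 0.0854 in JQ1 (log2 difference 2.58, adjusted p = 9.03e-05), and Fap was listed at 0 in all libraries. Dcn and Mfap5 stand on this list and on the matrix list. The part of these markers in the matrix differences was not tested. Pericyte and smooth muscle markers summed to 44.4 to 55.1 TPM in VPA and 20.4 to 29.5 in JQ1, with Acta2, smooth muscle actin, at 46.5 ± 4.26 TPM in VPA and 22.3 ± 3.67 in JQ1 (log2 difference 1.03, adjusted p = 0.000165), and Rgs5 and Kcnj8 listed at 0 throughout. Acta2 carries this sum: without it, the list held 1.74 to 3.96 TPM in VPA and 1.31 to 3.2 in JQ1. Epithelial markers summed to 25.3 to 35.8 TPM in VPA and 30.4 to 40.3 in JQ1, and Epcam was listed at 0. Without Krt19 that list held 0.67 to 1.12 TPM in VPA and 0 in JQ1.

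Lysosomal genes were lower in VPA than in JQ1. Of 37 lysosome and autophagy genes, 19 were lower and 3 higher (median −0.52), and the summed level was 3158 to 3194 TPM in VPA and 4751 to 4843 in JQ1. Grn, encoding the lysosomal protein progranulin, had 106, 95.1 and 98.2 TPM in VPA libraries, against 327, 319.7 and 309 in JQ1 libraries (log2 difference −1.67, SE 0.1, adjusted p = 4.75e-07). The autophagy receptor Sqstm1 had 52.5, 64.1 and 70.9 TPM in VPA libraries, against 203, 192 and 190.4 in JQ1 libraries (log2 difference −1.64, SE 0.1, adjusted p = 5.52e-07), and the sialidase Neu1 had 5.43, 6.85 and 3.36 TPM in VPA libraries, against 29.2, 32.9 and 25.4 in JQ1 libraries (log2 difference −2.31, SE 0.22, adjusted p = 1.35e-05). All 3 were lower in each VPA library. The calcium channel gene Mcoln1 averaged 7.11 ± 3.01 TPM in VPA and 38.6 ± 9.08 in JQ1 (log2 difference −2.32, adjusted p = 0.0147), a call that ended without VPA replicate 2 (adjusted p = 0.0557). Median differences from DMSO were 0.26 for VPA and 0.71 for JQ1, with 5 members higher with VPA and 24 with JQ1.

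Metal-handling genes held large differences at high expression. The metallothionein genes Mt1 and Mt2, whose products bind zinc and copper, had 2562, 2604 and 2869 TPM in VPA libraries, against 9933, 10387 and 10144 in JQ1 libraries for Mt1, and 2387, 2369 and 2454 TPM in VPA libraries, against 8318, 8657 and 9005 in JQ1 libraries for Mt2. Both were lower in VPA (log2 difference −1.92, SE 0.04, adjusted p = 1.47e-10; log2 difference −1.85, SE 0.043, adjusted p = 3.82e-10), with DMSO at 2031, 1999 and 1996 and at 1351, 1236 and 1337 TPM. VPA thus lay between vehicle and JQ1 in both genes. In this family of 14 tested genes, 3 were higher in VPA and 3 lower, beside 22.9% and 10.3% of all genes. The third lower member was Txnip (15.4 ± 2.32 TPM in VPA and 44.9 ± 8.34 in JQ1, log2 difference −1.48, adjusted p = 0.0378), whose call ended in 11 of 23 alternatives. Ferritin light chain, Ftl1 (ENSMUSG00000050708), had 2281, 2329 and 2382 TPM in VPA libraries, against 13240.1, 13823 and 13534 in JQ1 libraries (log2 difference −2.54, SE 0.045, adjusted p = 3.63e-11), and ferritin heavy chain, Fth1, had 1532, 1561 and 1663 TPM in VPA libraries, against 3357, 3254 and 3249 in JQ1 libraries (log2 difference −1.05, SE 0.043, adjusted p = 1.7e-08). Ferritin genes have many processed copies, so their levels are uncertain where reads are shared. Of 10 iron genes, 2 were higher in VPA and 5 lower, beside the same shares of all genes. A single one was higher when VPA or JQ1 replicate 2 or 3, any SAHA replicate or DMSO replicate 2 was left out. The heme oxygenase gene Hmox1 was lower at 11.6 ± 1.21 TPM in VPA, against 35.6 ± 5.81 in JQ1 (log2 difference −1.53, adjusted p = 6.49e-05), as was Ncoa4, the cargo receptor that delivers ferritin to lysosomes (5.15 ± 0.601 TPM in VPA and 11.7 ± 0.666 in JQ1; log2 difference −1.05, adjusted p = 0.00168).

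Stress pathways split within themselves. Of 28 genes of the unfolded protein and integrated stress response, 7 were higher in VPA and 8 lower (median 0.04). Over all genes the shares were 22.9% and 10.3%. The lower ones held Ddit3, the glutathione-degrading enzyme Chac1 (9.89 ± 0.431 TPM in VPA and 38.2 ± 5.25 in JQ1; log2 difference −1.84, adjusted p = 0.000623), the phosphatase subunit Ppp1r15a (47.4 ± 4.86 TPM in VPA and 124 ± 8.32 in JQ1; log2 difference −1.37, adjusted p = 0.000141) and the mTORC1 inhibitor Ddit4 (39.8 ± 3.58 TPM in VPA and 90.6 ± 7.46 in JQ1; log2 difference −1.17, adjusted p = 1.84e-05). The higher ones held the endoplasmic reticulum proteins Hsp90b1 (450.0 ± 6.74 TPM in VPA and 278 ± 11.5 in JQ1; log2 difference 0.70, adjusted p = 6.6e-07) and Manf (206 ± 8.88 TPM in VPA and 111 ± 2.67 in JQ1; log2 difference 0.88, adjusted p = 3.36e-06), both named after their values were seen. Hspa5, the chaperone BiP, also outside the rule, stood at 1234 ± 56.6 TPM in VPA and 1324 ± 19.6 in JQ1 (log2 difference −0.10, adjusted p = 0.0859). Of 24 NRF2 and antioxidant genes, 4 were higher in VPA and 6 lower, with 4 and 10 under median-of-ratios scaling. Superoxide dismutase, Sod1, had 593, 563 and 631 TPM in VPA libraries, against 1322, 1303 and 1204 in JQ1 libraries (log2 difference −1.10, SE 0.066, adjusted p = 4.24e-07), and glutathione reductase, Gsr, was higher in VPA (33.2 ± 4.99 TPM in VPA and 14.1 ± 2.4 in JQ1; log2 difference 1.18, adjusted p = 0.00023).

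Some genes stood on opposite sides of the vehicle under the 2 drugs. The comparisons of VPA and of JQ1 with DMSO share the DMSO libraries, so their values are given side by side. Gap43 lay at 28.8, 22 and 26.9 TPM in DMSO, rose with VPA (log2 difference 2.19, SE 0.24, adjusted p = 0.000718) and fell with JQ1 (log2 difference −2.89, SE 0.24, adjusted p = 4.99e-06). Fst rose with VPA (log2 difference 2.01, adjusted p = 0.0063) and fell with JQ1 (log2 difference −3.37, adjusted p = 1.16e-05). The same held for Ramp3 (log2 differences 1.13 and −2.63), Grem1 (log2 differences 0.78 and −4.01) and Spp1 (log2 differences 0.70 and −3.08), and for these 5 both calls held in all 22 alternatives run. Has2, the hyaluronan synthase, had 9.58, 9.38 and 8.08 TPM in VPA, 0, 0.35 and 0.15 in JQ1 and 3.6, 3.13 and 2.89 in DMSO. The EGF receptor ligand Areg had 14.1, 18.1 and 6.76 TPM in VPA, 0.48, 0.65 and 0.55 in JQ1 and 2.73, 3.8 and 4.13 in DMSO. Their rise with VPA ended in 1 alternative for Has2 (highest adjusted p = 0.108) and in 3 for Areg (0.0705).

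In the other direction, the PI3-kinase regulatory subunit gene Pik3r1 had 5.58, 7.06 and 6.66 TPM in VPA, 22.6, 30.3 and 32.8 in JQ1 and 18.2, 14.6 and 15.7 in DMSO. VPA libraries were the lowest and JQ1 libraries the highest (log2 difference −1.21, adjusted p = 0.0165 for VPA; log2 difference 0.77, adjusted p = 0.0256 for JQ1). The nuclear regulator Sertad1 had 13.8, 8.19 and 10.3 TPM in VPA, 48.7, 50.3 and 46.8 in JQ1 and 18.9, 18.7 and 19.4 in DMSO (log2 difference −0.79, adjusted p = 0.0196 for VPA; log2 difference 1.31, adjusted p = 8.01e-05 for JQ1). Mphosph9, a phosphoprotein of centrosomes, averaged 4.49 ± 2.07 TPM in VPA, 31.3 ± 7.67 in JQ1 and 13.7 ± 2.5 in DMSO. The fall with VPA ended in at least 1 of 22 alternatives for every gene of this kind, in 2 for Mphosph9 (adjusted p up to 0.0626), 3 for Pik3r1 (0.0657, with its rise under JQ1 ending in 4) and 5 for Sertad1 (0.0672). For Brd2 it ended in 16 (adjusted p = 0.0474, and up to 0.312), so the small difference of Brd2 between VPA and DMSO (−0.20) is near the threshold, unlike its rise with JQ1 (log2 difference 1.84, adjusted p = 9.43e-10).

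Other genes moved the same way under both drugs, with a 95% interval of their difference within 0.5 of 0 on the log2 scale. The keratin gene Krt19 had 35.1, 24.1 and 33.8 TPM in VPA, 30.4, 40.3 and 32 in JQ1 and 10.8, 12 and 11.2 in DMSO, and the VPA and JQ1 libraries overlapped. The difference between the drugs was −0.14 (95% interval −0.49 to 0.20), with 1.36 for VPA and 1.51 for JQ1 against DMSO. The adhesion molecule Ncam1 had 67, 70.5 and 67.2 TPM in VPA, 59.6, 65.5 and 70.3 in JQ1 and 37.4, 38.4 and 28.6 in DMSO (difference 0.07, 95% interval −0.19 to 0.33). Lipoprotein lipase, Lpl, averaged 34.4 ± 3.11 TPM in VPA, 38.8 ± 1.71 in JQ1 and 17.1 ± 1.97 in DMSO (95% interval −0.43 to 0.08), and its difference between the drugs passed with median-of-ratios scaling (adjusted p = 0.037) and quantile normalization (0.0354). Among genes that both drugs lowered, the retinol dehydrogenase Rdh10 had 3.54, 4.1 and 5.18 TPM in VPA, 4.2, 2.86 and 6.11 in JQ1 and 13.5, 11.3 and 11.7 in DMSO (difference 0.00, 95% interval −0.49 to 0.50). The nucleolar protein Npm1 averaged 1678 ± 60 TPM in VPA, 1507 ± 59.9 in JQ1 and 2667 ± 76.4 in DMSO. Its difference between the drugs was 0.15 (95% interval 0.05 to 0.26, adjusted p = 0.0231) and −0.04 with median-of-ratios scaling.

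**Figure D4:**
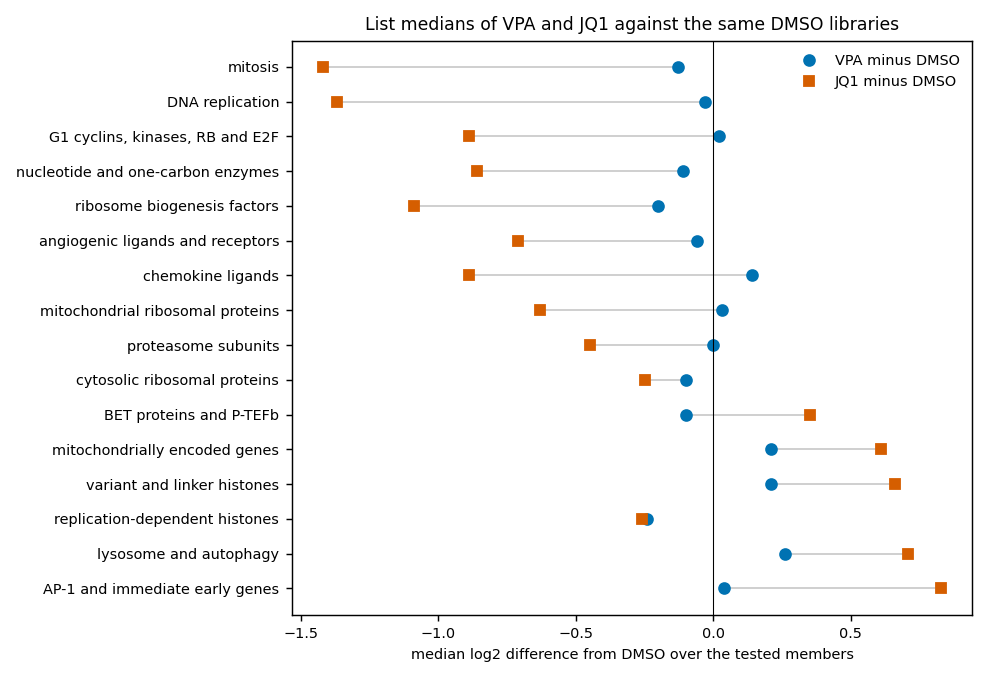
Median log2 difference from DMSO over the tested members of 16 gene lists, with circles for VPA and squares for JQ1, joined by a grey line. Both are set against the same 3 DMSO libraries. VPA medians lie between −0.24 and 0.26 and JQ1 medians between −1.42 and 0.83, and for replication-dependent histones the medians nearly coincide (−0.24 and −0.26).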

How the data were processed

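Cells grew in DMEM with 10% serum, and libraries were made with the QuantSeq 3′ FWD kit, per the labels' protocols. The authors deposited TPM. Tools listed in the submitters' processing notes are bcl2fastq 2.17, STAR, RSEM and edgeR, with the build mm39, and no roles. Tags from the 3′ end do not grow with gene length while TPM divides by it, so genes and lists are compared between libraries. List sums weight short genes more, so the part of a single member in a sum is uncertain. The matrix of 55359 identifiers was used; 3 sheets that repeat its values (332154 each) were not, and in the sheet of SAHA no identifier stood beside its own values. Symbols came from the matrix for 10988 tested genes and from GENCODE M21 for 1792. Promoter windows are RefSeq's, of GRCm38.p6, and no coordinates of mm39 are given.

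Genes reaching 1 TPM in 3 or more libraries were tested on log2(TPM + 1), without further scaling, with limma 3.58.1 (R 4.3.3; lmFit, eBayes with trend) in 4 group means over all 12 libraries (8 residual degrees of freedom). Tests were two-sided, with Benjamini-Hochberg adjustment over 12836 genes and a threshold of 0.05. The method was tested on simulated data. Lists were described by counts and medians with no set test. The members and lists were chosen with earlier results of these data known. Genes were named by a rule: 15 genes in each direction by size of difference, with at least 5 TPM on average in VPA or JQ1, separate libraries and no predicted symbol; up to 4 called genes per list; genes called in opposite directions, or alike, against DMSO; and 18 fixed genes. Not all are printed, 1 named gene is not reported here, and those said to be outside the rule were chosen after their values were seen. Figures used Python 3.11.15 and matplotlib 3.10.9. Alternatives covered pseudocount, filter, scaling, libraries in the fit, variance model, replicate block and leaving out each library.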

Additional observations from a re-analysis of the deposited data

How the results depend on the processing

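Of 217 named genes called between VPA and JQ1, 193 kept their call in each of the 23 alternatives that could be run and 24 lost it in at least 1, most often Itgb5 (15), Mlx (13) and Txnip (11). The counts of higher and lower genes, 2945 and 1319, ranged from 2597 to 2939 and from 1059 to 1330 with a library left out. For at least 2-fold differences (1432 and 579) the ranges were 1384 to 1432 and 521 to 582. A pseudocount of 5 left 654 at least 2-fold higher and 240 at least 2-fold lower genes, since it shrinks differences of low genes. Quantile normalization gave 2005 lower genes and 875 at least 2-fold lower, and the cause was not tested. Against DMSO, VPA raised 209 to 349 genes and lowered 73 to 159 with a library left out (379 and 169 with all), and both counts moved by over 1.5 times on leaving out any VPA library (209 to 213 and 96 to 102) or any DMSO library (221 to 232 and 73 to 85); the lower count was 293 with median-of-ratios scaling and 72 without the trend, and the cause was not tested. For JQ1 against DMSO (1657 higher, 2690 lower) the ranges were 1297 to 1667 and 2321 to 2695. Reversed signs occurred for Npm1 with median-of-ratios scaling (−0.0368, adjusted p = 0.593) and for S100a4 and COX3 with quantile normalization (0.0416 and 0.0532, adjusted p = 0.493 and 0.17), and the cause was not tested. With the replicate block, 2855 genes were higher and 1252 lower. The replicate numbers share only a number in the labels: residuals of same-numbered VPA and JQ1 libraries correlated at 0.0457 to 0.174 and others at −0.137 to 0.0226, so each VPA library correlated best with the JQ1 library of its number and the reverse, a hint from the data and not from the design. With SAHA, same-numbered VPA and JQ1 libraries correlated at 0.0113 to 0.105 and others at −0.139 to 0.0635. With DMSO the pattern was mixed. VPA replicate 2 correlated at 0.0772 with DMSO replicate 2, but VPA replicate 3 at 0.0729 with DMSO replicate 1. JQ1 replicate 3 correlated at 0.105 with DMSO replicate 1 and at −0.0817 with DMSO replicate 3. Of 1217 list medians recomputed, 1020 stayed within the spread between libraries. No list median could be computed for mitochondrially encoded genes when these were left out, or for leukocyte markers with the filter at 5 TPM. The unknown depth limits all low values.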

Other observations

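Cytoskeletal genes differed by family. Each count here stands beside 22.9% higher in VPA and 10.3% lower over all genes, shares that the integrin list was near. Of 13 tested tubulins, 8 were higher in VPA and 1 lower (median 0.83; 2 lower without VPA replicate 3), such as Tubb5 with 484, 519.6 and 493 TPM in VPA libraries, against 176, 176 and 164 in JQ1 libraries (log2 difference 1.53, SE 0.048, adjusted p = 2.25e-09) and Tubb2b, a neuronal isotype, with 75.5, 96.5 and 86.5 TPM in VPA libraries, against 23.7, 22.4 and 24.1 in JQ1 libraries (log2 difference 1.83, SE 0.11, adjusted p = 5.26e-07). Tubb2b rose with VPA against DMSO (log2 difference 1.37, adjusted p = 0.000109), while Tubb5 stood at 448 ± 5.21 TPM there. Of 11 neuronal genes, 5 were higher in VPA than in JQ1, with Dpysl3, a semaphorin-signalling protein, at 57.3 ± 1.83 TPM in VPA and 17.4 ± 2.08 in JQ1 (log2 difference 1.67, adjusted p = 4.99e-07) beside Vip and Gap43. Of 30 actin and contractile genes, 12 were higher in VPA and 8 lower, with 9 and 12 under median-of-ratios scaling. The tropomyosin gene Tpm2 averaged 110.0 ± 3.16 TPM in VPA and 38.5 ± 5.84 in JQ1 (log2 difference 1.50, adjusted p = 2.01e-06), and vinculin, Vcl, was lower at 9.83 ± 1.57 TPM in VPA, against 27.2 ± 1.21 in JQ1 (log2 difference −1.39, adjusted p = 5.61e-05). Of 8 S100 genes only S100a4 was called (4874 ± 205 TPM in VPA and 5313 ± 139.8 in JQ1; log2 difference −0.12, adjusted p = 0.0187), a call that ended in 7 of 23 alternatives, among them leaving out VPA replicate 1 or 2 or JQ1 replicate 2, and turned its sign with quantile normalization. Of 10 integrins with CD44, 2 were higher in VPA and 1 lower, Cd44 averaging 77.5 ± 1.98 TPM in VPA and 38.6 ± 2.67 in JQ1 (log2 difference 0.99, adjusted p = 5.88e-06), and the lower call, of Itgb5, ended on leaving out any single library other than VPA replicate 1.

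Of 14 interferon-stimulated genes, 4 were higher in VPA and 2 lower, with 7 higher without JQ1 replicate 2. Over all genes 22.9% were higher and 10.3% lower, the shares to set beside this and the next lists. The antiviral membrane protein Ifitm3 had 389.9, 443 and 379 TPM in VPA libraries, against 90.8, 94.1 and 99.2 in JQ1 libraries (log2 difference 2.08, SE 0.063, adjusted p = 2.09e-09). The lower calls of this list, Ifi35 and Irf1, ended in 7 and 5 of 23 alternatives. Of 12 genes of MHC class I presentation, 3 were higher in VPA and 3 lower, with the immunoproteasome subunit Psmb10 at 60.5, 61.3 and 79.9 TPM in VPA, against 6.48, 4.61 and 8.88 in JQ1 (log2 difference 3.18, SE 0.22, adjusted p = 1.31e-06) and 106, 128 and 104 in DMSO. H2-K1 was lower in VPA (103 ± 18.7 TPM in VPA and 158 ± 6.87 in JQ1; log2 difference −0.62, adjusted p = 0.0108), in a family of similar genes that can share reads. Of 9 retinoid genes, 3 were higher in VPA, led by Crabp1. Of 6 Notch genes, 2 were higher in VPA and 2 lower, and each count fell to 1 without some single libraries. Of 17 p53 targets, 3 were higher in VPA and 5 lower, with 3 lower without VPA replicate 3. The nuclease Aen was higher in VPA (27.4 ± 1.46 TPM in VPA and 9.37 ± 1.46 in JQ1; log2 difference 1.46, adjusted p = 4.51e-06) and Gadd45a lower (17.4 ± 4.53 TPM in VPA and 46.9 ± 4.68 in JQ1; log2 difference −1.41, adjusted p = 0.0011). Of 25 genes of the BCL2 family and caspases, 3 were higher in VPA and 2 lower, with 5 higher without VPA replicate 2 or SAHA replicate 3. Casp8 averaged 5.45 ± 1.82 TPM in VPA and 0.547 ± 0.291 in JQ1 (log2 difference 2.03, adjusted p = 0.000221), and Bcl2l11, encoding the death-promoting protein BIM, was lower in VPA (6.37 ± 0.86 TPM in VPA and 18.8 ± 0.925 in JQ1; log2 difference −1.43, adjusted p = 3.21e-05).

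Of 29 cholesterol and fatty acid genes, 4 were higher in VPA and 8 lower, with 2 higher without VPA replicate 2 or JQ1 replicate 2 or 3, and 5 lower without VPA replicate 3. Acly, which makes cytosolic acetyl-CoA from citrate, was lower in VPA with 15.5, 17.7 and 19 TPM in VPA libraries, against 34, 32.7 and 30.3 in JQ1 libraries (log2 difference −0.86, SE 0.12, adjusted p = 0.000232). Of 20 glycolysis genes, 7 were higher in VPA and 3 lower, with 4 and 4 under quantile normalization, and lactate dehydrogenase A, Ldha, averaged 156 ± 8.66 TPM in VPA and 73.4 ± 10.8 in JQ1 (log2 difference 1.09, adjusted p = 1.51e-05). Of 27 snoRNA host and other long noncoding RNA genes, 7 were higher in VPA and 8 lower, with 5 lower without JQ1 replicate 2. Neat1, the paraspeckle RNA next to Malat1 in the genome, had 21.9, 17.8 and 18.9 TPM in VPA libraries, against 56.5, 62.7 and 55.8 in JQ1 libraries (log2 difference −1.54, SE 0.12, adjusted p = 3.57e-06), and both drugs stood above DMSO (7.99, 7.82 and 9.29 TPM). Of 238 tested Zfp zinc finger genes, 26 were higher in VPA and 13 lower (median 0.04), or 10.9% and 5.46% against 22.9% and 10.3% of all genes, and Zfp961 averaged 15.9 ± 3.31 TPM in VPA and 3.83 ± 0.153 in JQ1 (log2 difference 1.79, adjusted p = 0.000133).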
